A study of Mus musculus with 6 samples.

Results

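Transcripts of 8 cytoplasmic intermediate filament genes were followed in cultured sensory neurons of the mouse, taken from the dorsal root ganglia (DRGs). The genes were chosen by symbol. Nefl, Nefm, Nefh, Prph and Ina are the 5 neuronal genes, and Vim, Nes and Gfap are the 3 glial or mesenchymal genes. All 8 were among the 35976 genes counted in each culture, and all 8 were among the 18277 genes that passed the low-count filter of edgeR. The cells were taken from all lumbar DRGs of C57BL/6 mice, male and female, aged 2 to 3 months. They were dissociated with enzymes, passed through a strainer and grown in medium with serum, nerve growth factor (25 ng/mL) and glial cell line-derived neurotrophic factor (50 ng/mL), and the methods name no sorting step. At 24 h after plating, 3 cultures received vehicle and 3 received 15 µg/mL HC-HA/PTX3, a matrix complex built on hyaluronan that comes from amniotic membrane, for a further 24 h. RNA depleted of ribosomal RNA was sequenced as read pairs. The total count was 42516054, 42617496 and 54117547 in vehicle replicates 1, 2 and 3, and 37998071, 37434266 and 38420247 in the HC-HA/PTX3 replicates. The study calls the replicates biological. Each sample is called a culture here, although the labels do not say whether samples were separate cultures or came from separate animals. Each p-value therefore measures only the spread between these samples.

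Intermediate filaments are ropelike polymers of the cytoskeleton whose subunits differ between cell types. In axons, the light, medium and heavy neurofilament subunits (Nefl, Nefm and Nefh) assemble together, usually with peripherin (Prph) in peripheral neurons or α-internexin (Ina) in central neurons, and their amount is known to set axon calibre. Within the DRG, neurofilaments are most abundant in large neurons with myelinated axons, and peripherin is most abundant in small neurons with unmyelinated axons. Vimentin (Vim) is the filament of fibroblasts, endothelium and many glia, nestin (Nes) is a filament of progenitors and immature glia, and glial fibrillary acidic protein (Gfap) marks astrocytes and, in peripheral ganglia, reactive satellite glia and non-myelinating Schwann cells.

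Neurofilament and peripherin transcripts were abundant in these cultures, vimentin and nestin transcripts were of the same order, and Ina and Gfap were scarce. Levels are given in CPM, counts brought to a common library size with edgeR's trimmed mean of M-values (TMM), and are divided by exon length in kilobases where genes are compared with each other. In the vehicle cultures Nefl had the highest level, 635 ± 151 CPM per kilobase, followed by Prph at 536 ± 68.3 and Vim at 362 ± 96.0 (SD, n = 3 each). Nefh at 167 ± 62.4, Nefm at 155 ± 47.3 and Nes at 108 ± 30.7 CPM per kilobase formed a middle group (SD, n = 3 each). Ina stood at 12.7 ± 0.369 and Gfap at 1.79 ± 1.48 CPM per kilobase (SD, n = 3 each). The neighbours Nefl and Prph lay within their spread of each other, as did Nefh, Nefm and Nes, whereas Ina was far below the middle group. The HC-HA/PTX3 cultures kept this order, from 653 ± 148 for Nefl to 1.10 ± 0.916 CPM per kilobase for Gfap (SD, n = 3 each). These values use the union of all annotated exons. With the longest transcript of each gene in its place, the vehicle level of Vim was 587 ± 156 and that of Nefm 244 ± 74.4 CPM per kilobase (SD, n = 3 each), so Vim then stood beside Nefl and Prph, and Nefm above Nefh. That of Gfap was then 2.85 ± 2.35 CPM per kilobase (SD, n = 3), still the lowest. When all 35976 genes were ordered by their vehicle mean in CPM, Nefl was at rank 18, Vim at 25, Prph at 56, Nefm at 78, Nes at 120, Nefh at 126, Ina at 5501 and Gfap at 10992. Together the 8 genes took 0.797%, 0.695% and 0.657% of all counts in vehicle replicates 1, 2 and 3, and 0.805%, 0.703% and 0.663% in the HC-HA/PTX3 replicates.

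In the RefSeq annotation of build GRCm38.p6, Nefl and Nefm are neighbours on chromosome 14 (68083863 to 68089095 and 68119545 to 68125004). Nefh (4938754 to 4948064) and Gfap (102887336 to 102897200) are both on chromosome 11, far apart. The others are Vim on chromosome 2 (13574311 to 13582826), Nes on chromosome 3 (87971093 to 87980451), Prph on chromosome 15 (99053579 to 99058978) and Ina on chromosome 19 (47014681 to 47025327). In the GENCODE annotation, Nefm extends further and shares 1108 bp of exon with Nefl on the opposite strand, and Ina shares 456 bp of exon with Nt5c2 on the opposite strand. The Nefl and Nefm positions of RefSeq do not overlap. Neither the strand setting nor the version of the gene set used for counting is stated, so whether these stretches entered the counts, and which exon length of Nefm applies, was not tested.

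The make-up of the neuronal filament transcripts was similar after vehicle and HC-HA/PTX3, and it differed between replicate numbers. Of the summed CPM per kilobase of the 5 neuronal genes, Nefl held 41.89% ± 4.04 with vehicle and 41.82% ± 5.02 with HC-HA/PTX3, and Prph held 36.28% ± 7.56 and 35.49% ± 6.96 (SD, n = 3 each). Nefh held 10.84% ± 2.41 and 11.47% ± 1.08, Nefm 10.14% ± 1.57 and 10.60% ± 1.32, and Ina 0.85% ± 0.11 and 0.62% ± 0.14 (SD, n = 3 each). In replicate 1 the share of Prph was 27.56% with vehicle and 27.92% with HC-HA/PTX3, below its share in every culture of the other replicates, where it lay between 36.94% and 41.61%. The share of Ina was lower in the treated culture of each same-numbered pair.

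**Figure D1:**
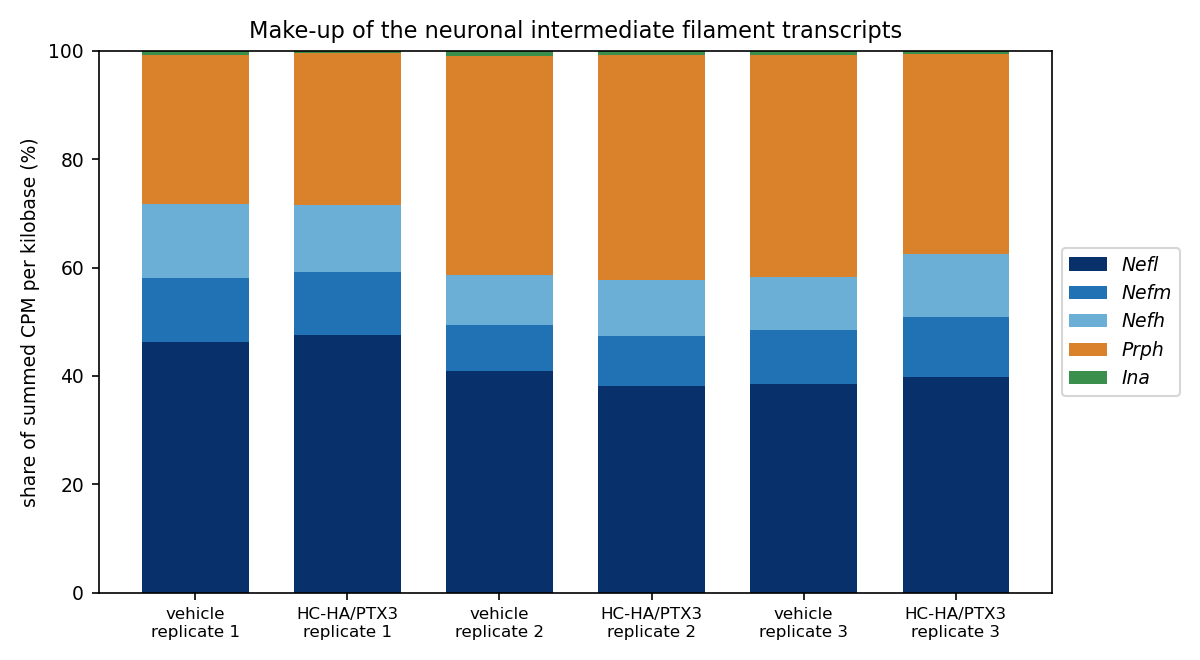
Share of each neuronal gene in the summed CPM per kilobase of the 5 neuronal intermediate filament genes (vertical axis, percent), 1 bar per culture, with same-numbered cultures side by side. Prph takes 27.56% and 27.92% in the cultures numbered 1 and between 36.94% and 41.61% in the others, while treated and vehicle bars of the same number look alike.

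The comparison of HC-HA/PTX3 with vehicle asks which of these filament genes the treatment moved. Gfap was lower after HC-HA/PTX3, Ina and Nes were lower by smaller amounts, and the neurofilament triplet, Prph and Vim did not pass the test. The test was edgeR's quasi-likelihood test with the replicate number as a block, which compares same-numbered cultures, with p-values adjusted over all 18277 genes by the Benjamini-Hochberg (BH) method. A gene was called at an adjusted p under 0.05 together with an absolute log2 fold change over 0.5. Of the 8 genes, 1 was called lower (Gfap), where 5.38% of all tested genes were called lower, and 0 were called higher, where 3.32% of all genes were. In both directions together 1591 genes were called, 8.70% of those tested. The count of 0 higher was also 0 in DESeq2, in limma-voom, after ComBat-seq, and at an unadjusted p under 0.05 in edgeR. By the adjusted p alone, 3 of the 8 were lower (Ina, Nes and Gfap) beside 11.5% of all genes, and 0 were higher beside 7.67%. In all 3 same-numbered pairs the treated culture was lower for 3 of the 8, the same genes, and for 28.7% of all genes. These shares describe 8 genes chosen with results known and were not tested as a set.

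The block decided these calls. With the treatment as the only term, edgeR called 0 of the 18277 genes (0% of all genes, smallest adjusted p 0.0581), although 2089 had an unadjusted p under 0.05. In the blocked fit 6068 genes did. DESeq2 and limma-voom with the replicate number in the design called 1211 and 1569 genes, and limma after ComBat-seq had adjusted for replicate number called 2127. Of the 8 filament genes, 1 had an unadjusted p under 0.05 without the block, namely Ina. Without replicate 1 the blocked edgeR fit called 878 genes and 0 of the 8.

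**Figure D2:**
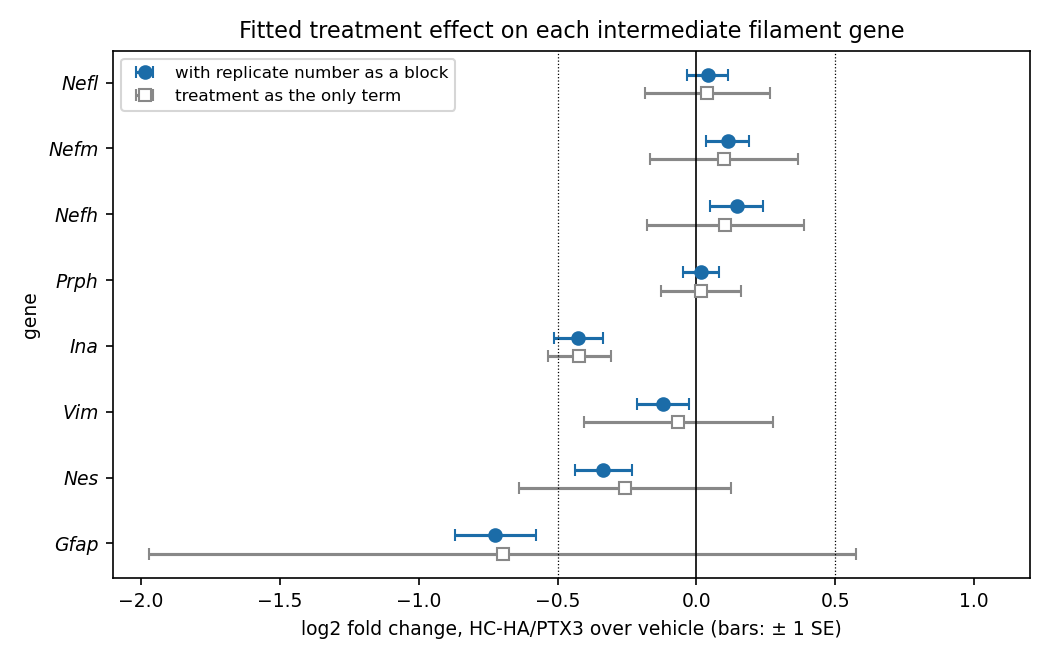
Fitted log2 fold change of each gene, HC-HA/PTX3 over vehicle (horizontal axis), with bars of 1 SE, from the edgeR fit blocked by replicate number (filled circles) and with the treatment as the only term (open squares). Dotted lines mark −0.5 and 0.5. Gfap at −0.72 is the only gene beyond them in the blocked fit, and the estimates of the 2 fits lie close together while the error bar of Gfap widens from 0.15 to 1.27 without the block.

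The 3 genes whose adjusted p was under 0.05 are shown here by the bases before their start sites, since their transcripts were all lower after treatment. RefSeq promoter entries were matched by symbol for 5 of the 8 genes (Prph, Ina, Vim, Nes and Gfap) and not for Nefl, Nefm and Nefh. The 250 bases before each start were searched on both strands for TATAAA, known as the TATA box, CCAAT, known as the CCAAT box, GGGCGG, the GC box, TGANTCA, the AP-1 motif, and TTCNNNGAA, the STAT motif, and no 2 matches in the printed stretches overlap. Each stretch below is from build GRCm38.p6, runs 5′ to 3′ on the strand of the gene, leaves out annotated exon (15 bases for Nes) and has matches in capitals. Gfap lies on the minus strand at chr11:102897201-102897450, Nes on the plus strand at chr3:87970843-87971077 and Ina on the plus strand at chr19:47014431-47014680.
Gfap: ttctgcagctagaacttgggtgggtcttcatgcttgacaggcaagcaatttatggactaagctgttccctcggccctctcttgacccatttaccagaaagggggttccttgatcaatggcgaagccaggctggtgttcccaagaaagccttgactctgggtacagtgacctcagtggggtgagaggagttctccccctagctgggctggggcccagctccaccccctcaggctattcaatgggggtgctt
Nes: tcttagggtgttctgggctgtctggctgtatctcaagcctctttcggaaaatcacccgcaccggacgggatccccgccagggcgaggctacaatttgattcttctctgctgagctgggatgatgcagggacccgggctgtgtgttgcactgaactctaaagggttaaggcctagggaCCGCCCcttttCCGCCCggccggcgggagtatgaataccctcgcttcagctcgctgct
Ina: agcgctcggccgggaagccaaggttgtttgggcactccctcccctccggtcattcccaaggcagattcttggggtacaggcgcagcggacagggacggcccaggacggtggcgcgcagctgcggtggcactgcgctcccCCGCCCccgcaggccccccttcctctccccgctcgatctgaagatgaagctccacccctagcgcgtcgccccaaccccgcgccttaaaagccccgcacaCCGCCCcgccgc
The stretches of Nes and Ina each hold 2 GC boxes, read on the opposite strand as CCGCCC, and that of Gfap holds none of the 5 motifs. A GC box was found before 32.7% of the 32851 promoters in the table, a TATA box before 12.4%, a CCAAT box before 33.8%, an AP-1 motif before 6.75% and a STAT motif before 7.02%. Of the genes that did not pass the test, Prph had a TATA box and 1 GC box, and Vim had a TATA box and 2 CCAAT boxes in a window whose 250 bases are all annotated as Vim exon. The Prph window, chr15:99054924-99055173 on the plus strand, lies inside the RefSeq span given above. The start it precedes is therefore not the first base of that span. AP-1 and STAT motifs were found in 0 of the 5. A match is a description of letters in this window and was not tested as a binding site.

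The neurofilament triplet, the main structural filaments of large-calibre axons, differed between replicate numbers far more than between treatments. Nefl was measured at 2726, 1765 and 1948 CPM in vehicle replicates 1, 2 and 3, and at 2705, 1707 and 2206 CPM in the HC-HA/PTX3 replicates. Nefm was measured at 1183, 638 and 869 CPM with vehicle and at 1126, 695 and 1058 CPM with HC-HA/PTX3. The levels of Nefh were 945, 467 and 585 CPM with vehicle and 839, 546 and 761 CPM with HC-HA/PTX3. For all 3 genes replicate 1 was highest and replicate 2 lowest within each group, and the groups overlapped. The blocked log2 fold change was 0.04 for Nefl (SE 0.07, 95% interval −0.12 to 0.20, adjusted p = 0.744 by edgeR's quasi-likelihood test, BH-adjusted). It was 0.11 for Nefm (SE 0.08, interval −0.06 to 0.28, adjusted p = 0.339) and 0.14 for Nefh (SE 0.09, interval −0.07 to 0.35, adjusted p = 0.320 from the same edgeR test). An adjusted p over 0.05 does not show that levels were equal, but these intervals do not reach a log2 fold change of 0.5. The ratios within the pairs were not uniform. Treated over vehicle, Nefh stood at 0.888, 1.17 and 1.30 in the pairs numbered 1, 2 and 3, and Nefm at 0.952, 1.09 and 1.22. Without replicate 1 the log2 fold change of Nefh was 0.30 with an adjusted p of 0.0199 (edgeR, range over all alternatives 0.0156 to 0.933), and that of Nefl turned to −0.01 without replicate 3.

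The proportions of the 3 subunits to each other in CPM varied between cultures, without a division by treatment. Nefm over Nefl was 0.434, 0.361 and 0.446 in vehicle replicates 1, 2 and 3, and 0.416, 0.407 and 0.480 in the HC-HA/PTX3 replicates. Nefh over Nefl was 0.347, 0.265 and 0.300 with vehicle and 0.310, 0.320 and 0.345 with HC-HA/PTX3. The groups overlapped for both ratios, and in 1 of 3 pairs the treated culture had the lower value.

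Peripherin, the filament of small unmyelinated sensory neurons, was the steadiest of the abundant genes. Prph was measured at 959, 1033 and 1224 CPM in vehicle replicates 1, 2 and 3, and at 939, 1099.6 and 1213 CPM in the HC-HA/PTX3 replicates. Within each group replicate 3 was highest and replicate 1 lowest, which is not the order of the triplet, and the groups overlapped. Its blocked log2 fold change was 0.02 (SE 0.06, 95% interval −0.13 to 0.16, adjusted p = 0.893 by edgeR's quasi-likelihood test, BH-adjusted). Prph over Nefh in CPM was 1.01, 2.21 and 2.09 with vehicle and 1.12, 2.01 and 1.59 with HC-HA/PTX3, so this ratio was lowest in both cultures numbered 1.

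α-Internexin, a filament subunit of developing and central neurons, was the only neuronal gene whose groups did not overlap. Ina was measured at 41.6, 39.6 and 41.8 CPM in vehicle replicates 1, 2 and 3, and at 26.7, 32.8 and 32.4 CPM in the HC-HA/PTX3 replicates. Every treated culture was below every vehicle culture, which held for 1 of the 8 genes and for 8.57% of all tested genes. The vehicle values lay close together, and treated replicate 1 was the lowest. The blocked log2 fold change was −0.43 (SE 0.09, 95% interval −0.62 to −0.23, adjusted p = 0.00855 by edgeR's quasi-likelihood test, BH-adjusted), a change of −25.5% that stayed short of the fold threshold of 0.5. Treated over vehicle, the ratio was 0.643, 0.827 and 0.774 in the pairs numbered 1, 2 and 3. Without the block the log2 fold change was −0.42 with an adjusted p of 0.285 (unadjusted 0.00799), and without replicate 1 the blocked adjusted p was 0.0711. Without replicate 2 the log2 fold change passed the threshold, at −0.51 (adjusted p = 0.0267). The adjusted p of Ina ran from 9.56e-05 to 0.285 over the alternatives. Nt5c2, which shares exon with Ina on the other strand and was looked up for that reason, was also lower in each treated culture, at −0.22 (SE 0.08, adjusted p = 0.0803 in the blocked edgeR fit). The part that its reads had in the counts of Ina was not tested. In bulk cultures, fewer cells of a type and less RNA per cell cannot be told apart, for Ina and for every gene below.

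**Figure D3:**
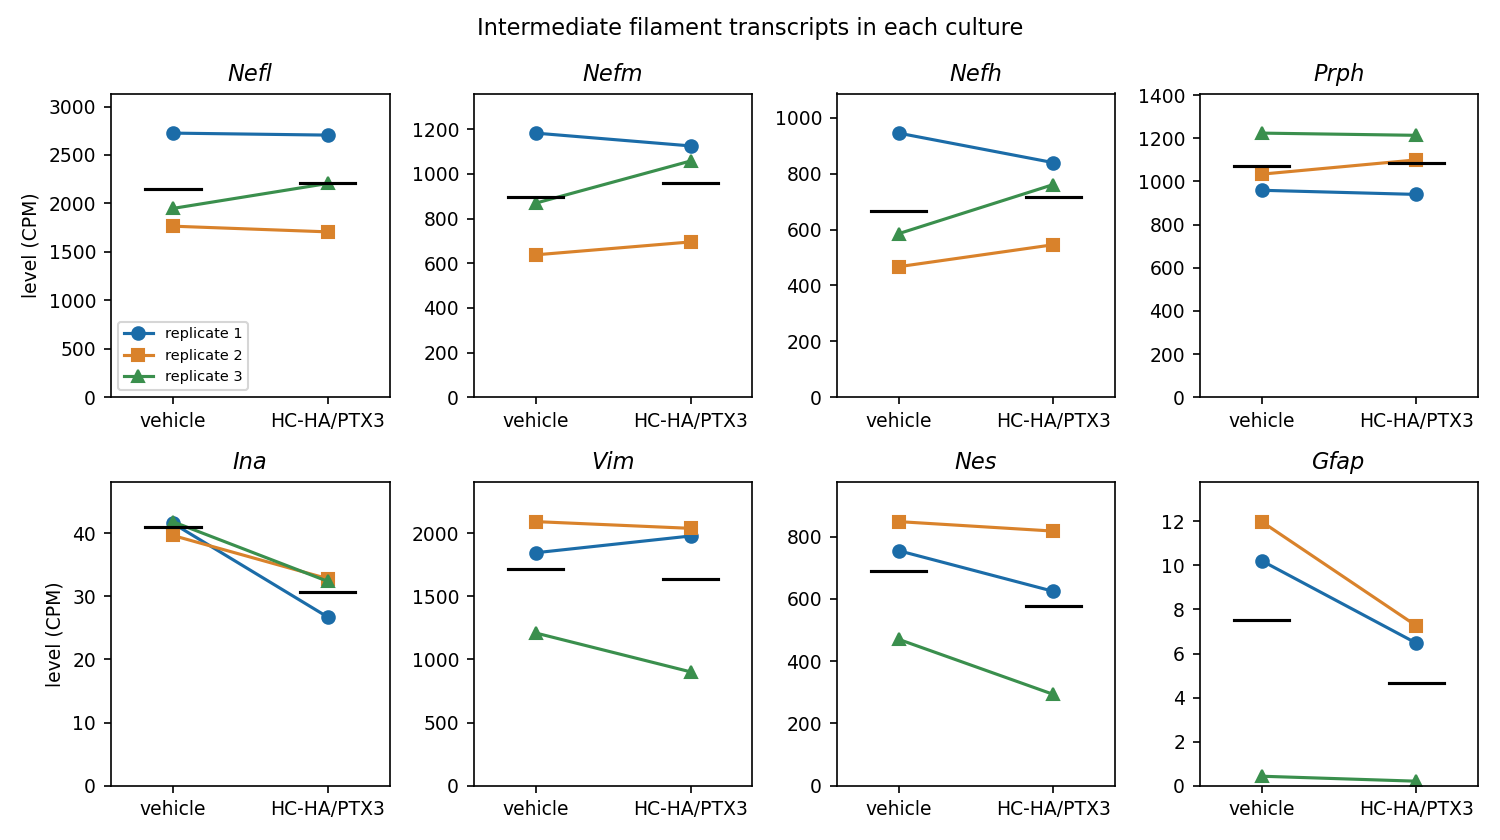
Level of each of the 8 genes in CPM (vertical axes, each starting at 0) in the 3 vehicle and 3 HC-HA/PTX3 cultures. Symbols and colours mark the replicate number, lines join same-numbered cultures and black bars are group means. Ina is at 32.8 CPM or less in every treated culture and at 39.6 CPM or more in every vehicle culture, Gfap is near 0 in both cultures numbered 3, and the remaining genes keep the same order of replicates in both groups.

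Vimentin and nestin, which are often made by the same glial and mesenchymal cells, were high in replicates 1 and 2 and low in replicate 3. Vim was measured at 1846, 2093 and 1210.1 CPM in vehicle replicates 1, 2 and 3, and at 1979, 2039 and 902 CPM in the HC-HA/PTX3 replicates. Nes was measured at 755, 849 and 470.2 CPM with vehicle and at 624, 818 and 293 CPM with HC-HA/PTX3. The groups overlapped for both genes, and within each group replicate 3 was lowest. Nes had a blocked log2 fold change of −0.34 (SE 0.10, 95% interval −0.56 to −0.11, adjusted p = 0.0434 by edgeR's quasi-likelihood test, BH-adjusted) and was lower in all 3 pairs, at 0.827, 0.964 and 0.623 of its vehicle level. Vim had −0.12 (SE 0.09, interval −0.33 to 0.09, adjusted p = 0.410 from the same edgeR test), with pair ratios of 1.07, 0.974 and 0.745. Its adjusted p ran from 0.0482 with no filter on low counts to 0.971 without the block. The result for Nes leaned on replicate 3. Without replicate 3 its log2 fold change was −0.15 (adjusted p = 0.305), and that of Vim turned to 0.05. For Nes the blocked edgeR fit gave −0.36 (adjusted p = 0.101) without replicate 1 and −0.48 (adjusted p = 0.0368) without replicate 2. The adjusted p of Nes was 0.0643 with upper-quartile scaling, 0.0501 with raw library sizes, 0.0780 after ComBat-seq, 0.0158 in DESeq2, 0.0368 in limma-voom and 0.862 without the block, and it was lowest without a filter on low counts, at 9.78e-08. Nes over Vim in CPM was 0.409, 0.405 and 0.389 with vehicle and 0.316, 0.401 and 0.325 with HC-HA/PTX3, lower in the treated culture of each pair while the groups overlapped.

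Gfap, the filament of reactive satellite glia and non-myelinating Schwann cells, had the largest fold change of the 8 genes and by far the lowest level. It was measured at 10.2, 11.99 and 0.429 CPM in vehicle replicates 1, 2 and 3, and at 6.47, 7.25 and 0.203 CPM in the HC-HA/PTX3 replicates. The deposited counts behind these levels were 409, 515 and 24 with vehicle and 240, 275 and 8 with HC-HA/PTX3. Both cultures numbered 3 were near 0 and all others were several-fold higher, so the groups overlapped. Within the pairs numbered 1 and 2 the treated level was 0.633 (95% exact binomial interval 0.538 to 0.744) and 0.605 (0.521 to 0.702) of the vehicle level. In the pair numbered 3 it was 0.474, with an interval of 0.184 to 1.09, so a difference was not detectable at this depth in that pair alone. These intervals cover counting error only. The blocked log2 fold change was −0.72 (SE 0.15, 95% interval −1.05 to −0.40, adjusted p = 0.00816 by edgeR's quasi-likelihood test, BH-adjusted), a change of −39.4%. Without replicate 3 it was −0.68 (adjusted p = 0.00381), so the call did not rest on the cultures near 0. Gfap lost its call without the block, at −0.70 (adjusted p = 0.896), without replicate 1, at −0.77 (adjusted p = 0.0759), and without replicate 2, at −0.73 (adjusted p = 0.0732). Over all alternatives the adjusted p ran from 0.000252 to 0.896.

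Summed by class, the 5 neuronal genes had 5854, 3943 and 4668 CPM in vehicle replicates 1, 2 and 3, and 5637, 4080.1 and 5271 CPM in the HC-HA/PTX3 replicates. The 3 glial or mesenchymal genes had 2611, 2953 and 1681 CPM with vehicle and 2609, 2864 and 1195 CPM with HC-HA/PTX3. The neuronal sum was thus 2.24, 1.34 and 2.78 times the glial or mesenchymal sum with vehicle and 2.16, 1.42 and 4.41 times with HC-HA/PTX3. The groups overlapped, and the treated culture numbered 3 had the highest ratio of the 6. The glial or mesenchymal sum was lower in the treated culture of all 3 pairs, by a small margin in the pair numbered 1, and most of it was Vim.

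Differences between replicate numbers were tested in the same edgeR fit, as a question that does not use the treatment contrast. They passed at an adjusted p under 0.05 for 7 of the 8 genes, all except Ina (adjusted p = 0.547), and for 33.8% of all tested genes (6180). The adjusted p-values of the BH method were 9.17e-04 for Nefl, 3.81e-04 for Nefm, 0.00117 for Nefh and 0.0152 for Prph. They were 2.75e-04 for Vim, 1.98e-04 for Nes and 5.19e-07 for Gfap, which stood at position 49 of the 18277 genes ordered by this test. Averaged over both cultures of a number, Gfap was 30.5-fold higher in replicate 2 than in replicate 3, Nes 2.18-fold and Vim 1.96-fold. Nefh was 1.76-fold, Nefm 1.73-fold and Nefl 1.56-fold higher in replicate 1 than in replicate 2, and Prph was 1.28-fold higher in replicate 3 than in replicate 1. When replicate 3 was left out, 4 of the 8 genes passed, and 5 did without replicate 2.

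Compared over the 6 cultures as log2 CPM centred on each gene's mean, the triplet genes lay close to each other, and so did Vim and Nes. The root mean square difference was 0.0815 between Nefm and Nefh, 0.126 between Nefl and Nefm, 0.132 between Nefl and Nefh, and 0.155 between Vim and Nes. Prph and Ina were at 0.247 from each other, which is not small beside their own SDs of 0.164 and 0.257. Gfap was at least 1.73 from every other member. Among 13568 other genes whose log2 CPM averaged 1 or more, the 3 closest to Nefl were Gramd1b, Timp2 and Negr1 (0.0442, 0.0460 and 0.0488). The closest to Nefm were Snap25, Tmod1 and S100b (0.0425, 0.0470 and 0.0677), and those to Nefh were Ano3, Chgb and Sncg (0.0608, 0.0929 and 0.0981). Snap25, a synaptic membrane fusion protein, for example, was at 585, 328 and 459 CPM with vehicle and 603, 374 and 562 CPM with HC-HA/PTX3. The closest to Vim were Atp8b1, Igfbp6 and Pacsin3 (0.0382, 0.0628 and 0.0687), and those to Nes were Kif7, Hoxc5 and Nynrin (0.0537, 0.0611 and 0.0718). The closest to Gfap were Kcnj10, C4b and Itih5 (0.491, 0.565 and 0.604). All these genes lay nearer to their member than any other member did, except Chgb and Sncg for Nefh, to which Nefm was nearer. Closeness within the family was therefore not particular to it. Kcnj10, the inward rectifier potassium channel of satellite glia, was at 218, 128 and 5.11 CPM with vehicle and 168, 95.2 and 4.70 CPM with HC-HA/PTX3, so it was also low in replicate 3. Prph and Ina were not ranked, because their SD of log2 CPM (0.164 and 0.257) was below the median of tested genes (0.269).

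**Figure D4:**
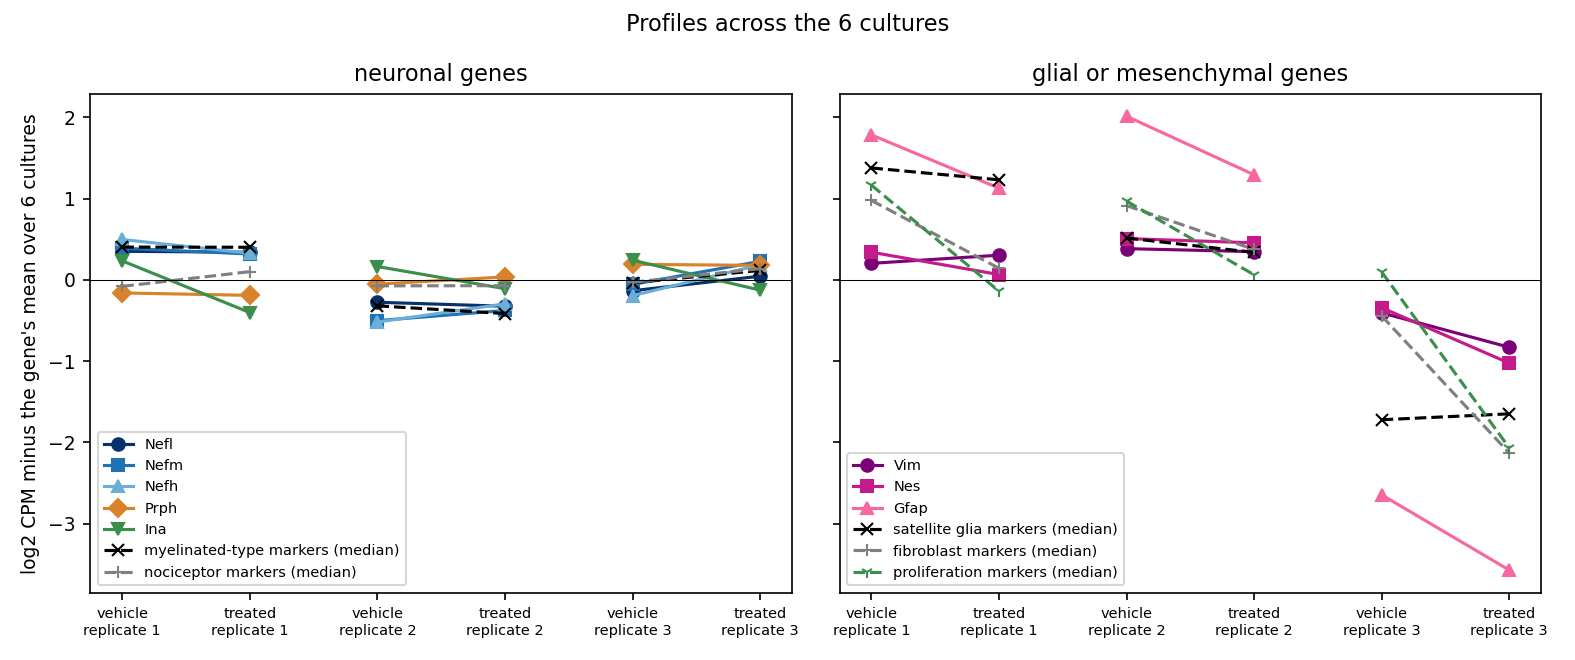
Log2 CPM minus the mean over the 6 cultures (vertical axis) for the neuronal genes (left) and the glial or mesenchymal genes (right), with the median of marker gene lists as dashed lines. Cultures are set side by side by replicate number and lines join same-numbered cultures. The triplet lies beside the median of the markers of neurons with myelinated axons. Gfap, at −2.65 and −3.57 in the cultures numbered 3, is low where the satellite glia median is low, at −1.72 and −1.65. The fibroblast median is also low there, at −0.444 and −2.13. From number 1 to number 2 Gfap rises, from 1.78 to 2.01 with vehicle and from 1.13 to 1.29 with HC-HA/PTX3. The satellite glia median falls, from 1.38 to 0.515 and from 1.23 to 0.337.

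Neuron markers were abundant and gave 0 calls, and 2 markers of neuron subtypes were called, both of nociceptors. In both directions together 8.70% of all tested genes were called. Of 9 neuron markers 0 were called in either direction, with a median log2 fold change of 0.09 where the median of all tested genes was −0.01. At an unadjusted p under 0.05 edgeR had 1 lower and 3 higher, and DESeq2, limma-voom and ComBat-seq called 0. Tubb3, a neuronal tubulin and the most abundant of them, had 1296, 1197 and 1156 CPM with vehicle and 1496, 1328 and 1295 CPM with HC-HA/PTX3 (adjusted p = 0.0837 in the blocked edgeR fit). Of 10 markers of neurons with myelinated axons 0 were called (unadjusted 1 lower and 2 higher, and 0 in the other tools), with a median of −0.04, and all 10 differed between replicate numbers, as 33.8% of all genes did. Their summed level was 1644, 1003 and 1206 CPM with vehicle and 1591, 957 and 1301 CPM with HC-HA/PTX3, highest in replicate 1 and lowest in replicate 2, as for the triplet. Thy1, a surface protein of many sensory neurons, was the most abundant, at 557, 312 and 466 CPM with vehicle and 494, 332 and 529 CPM with HC-HA/PTX3. Of 10 nociceptor markers 2 rose, Tac1 (substance P precursor, 1.005, SE 0.06, adjusted p = 4.92e-05) and Mrgprd (a receptor of nonpeptidergic nociceptors, 0.62, SE 0.10, adjusted p = 0.00267, both edgeR with BH adjustment), and the list's median was 0.05, where 3.32% of all genes were called higher. By the adjusted p alone 2 of the 10 were lower, where 11.5% of all genes were. Named after their values were seen, these were the neurturin receptor Gfra2 (−0.34, adjusted p = 0.0466) and the transcription factor Runx1 (−0.22, adjusted p = 0.0316, both edgeR with BH adjustment). Without the block 0 of the 10 were called and 1 was higher at an unadjusted p under 0.05. Scn10a, a nociceptor sodium channel and the most abundant gene of that list, had a log2 fold change of −0.02 (adjusted p = 0.884). Whether the mix of neuron types had a part in the levels of the triplet was not tested.

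Most satellite glia markers were lowest in replicate 3 of both groups, beside Gfap. The exception was S100b, a calcium-binding protein of glia and some neurons, at 188, 93.9 and 143 CPM with vehicle and 193, 108 and 170.5 CPM with HC-HA/PTX3, lowest in replicate 2. Their summed level was 2473, 1399.6 and 653 CPM in vehicle replicates 1, 2 and 3, and 2307, 1412 and 683 CPM in the HC-HA/PTX3 replicates, and all 10 differed between replicate numbers, where 33.8% of all genes did. Between replicates 1 and 2 Gfap went the other way. In both groups all 10 markers were higher in replicate 1 than in replicate 2. Gfap was higher in replicate 2, at 11.99 against 10.2 CPM with vehicle and 7.25 against 6.47 CPM with HC-HA/PTX3. The summed fibroblast markers, given below, were also lowest in replicate 3 of both groups. Apoe, a lipid carrier and the most abundant satellite glia marker, was at 672, 239 and 96.7 CPM with vehicle and 570.3, 240.4 and 73.4 CPM with HC-HA/PTX3. Of the 10 genes 1 was called lower, where 5.38% of all genes were, namely Atp1b2, a sodium pump subunit of glia (−0.67, SE 0.17, adjusted p = 0.0198 from edgeR with BH adjustment), and the median was −0.18. Atp1b2 lost its call in DESeq2, without the block, without replicate 1 and without replicate 2. By the adjusted p alone 3 were lower and 1 higher, where 11.5% and 7.67% of all genes were. Beside Atp1b2 these were Kcnj10 (−0.34, SE 0.07, adjusted p = 0.0108) and, named after their values were seen, the fatty acid binding protein Fabp7 (−0.40, SE 0.09, adjusted p = 0.0154) and the glutamine synthetase Glul (0.28, SE 0.07, adjusted p = 0.0198, all edgeR with BH adjustment). The scarcest marker, also named after its values were seen, was Hepacam, a glial adhesion protein, at 0.947 and 1.42 CPM in the cultures numbered 3. Of 8 repair Schwann cell markers 0 of the 7 tested were called (unadjusted 1 lower, and 0 in the other tools), with a median of −0.05. Ngfr, the low-affinity neurotrophin receptor and the most abundant, had 0.01 (adjusted p = 0.912), and Olig1 had fewer than 10 counts in every culture. The part of the glial cell content in the change of Gfap was not tested.

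All proliferation markers and some fibroblast markers fell after HC-HA/PTX3, beside the lower levels of Nes and Gfap. Of 8 fibroblast markers 5 fell, among them the collagens Col1a1 (−1.62, SE 0.17, adjusted p = 5.47e-04), Col1a2 (−1.11, SE 0.18, adjusted p = 0.00270) and Col3a1 (−0.96, SE 0.17, adjusted p = 0.00440) and the matrix protein Fbln1 (−0.87, SE 0.22, adjusted p = 0.0213, all edgeR with BH adjustment). Their sum was 2721, 2464 and 943 CPM with vehicle and 1576, 1621 and 322 CPM with HC-HA/PTX3, with Col3a1 the most abundant gene. Of 9 proliferation markers 9 fell, with a median of −1.44. Of all tested genes 5.38% were called lower, the share to hold beside both lists. The largest changes were in the cyclin Ccna2 (−1.75, SE 0.25, adjusted p = 0.00170), the cell cycle antigen Mki67 (−1.72, SE 0.22, adjusted p = 0.00104), the topoisomerase Top2a (−1.68, SE 0.21, adjusted p = 0.00103) and the replication helicase Mcm5 (−1.55, SE 0.19, adjusted p = 9.41e-04). The sum of the 9 was 850.3, 644 and 333 CPM with vehicle and 312, 347 and 91.4 CPM with HC-HA/PTX3, and Mki67 was the most abundant. Without replicate 3, 4 fibroblast and 8 proliferation markers were called lower. Without the block 0 of either list were called, where 0 fibroblast and 4 proliferation markers had an unadjusted p under 0.05. Whether dividing or fibroblast-like cells had a part in the levels of Vim, Nes and Gfap was not tested.

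Other intermediate filament genes were either scarce or without a call, and the lamins divided by type. Of 10 other cytoplasmic filament genes 8 were tested and 0 called by edgeR, where 2 had an unadjusted p under 0.05 (both lower), DESeq2 called 1 lower, and limma-voom and ComBat-seq called 0. Without replicate 2 the blocked edgeR fit called 1 lower. Their median log2 fold change was −0.01. Synm, encoding synemin, which joins vimentin or desmin filaments, was the most abundant, at 290.3, 184 and 302 CPM with vehicle and 220.2, 169 and 313 CPM with HC-HA/PTX3 (−0.16, SE 0.08, adjusted p = 0.221). Krt18, an epithelial keratin, and Bfsp2, a lens filament gene, had fewer than 10 counts in every culture and were not tested. Of the 3 nuclear lamins, the filaments under the nuclear envelope, the B-type genes Lmnb1 (−0.94, SE 0.13, adjusted p = 0.00163) and Lmnb2 (−0.97, SE 0.15, adjusted p = 0.00229, both edgeR with BH adjustment) fell. Lmnb1 was at 53.0, 43.8 and 27.0 CPM with vehicle and 22.1, 31.6 and 12.6 CPM with HC-HA/PTX3. Lmna, the A-type gene and the most abundant, had a log2 fold change of 0.05 (adjusted p = 0.598). Of all tested genes 5.38% were called lower. Without the block 0 of the 3 lamins were called, and 2 had an unadjusted p under 0.05.

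Linkers that tie intermediate filaments to other structures moved in 1 case. Of 7 plakins and desmosomal linkers 1 rose, where 3.32% of all genes did, namely periplakin (Ppl), from 0.899, 1.12 and 0.947 CPM with vehicle to 2.56, 2.43 and 1.47 CPM with HC-HA/PTX3 (log2 fold change 1.09, SE 0.23, adjusted p = 0.0103 from edgeR with BH adjustment). The groups of Ppl did not overlap, its level was low, and it lost its call without the block (adjusted p = 0.264), without replicate 1 and without replicate 2. Dst (dystonin), the most abundant plakin, which links neurofilaments to microtubules and actin in sensory neurons, had 0.13 (SE 0.08, adjusted p = 0.266).

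Genes that modify, degrade or carry neurofilaments, with their microtubule tracks, gave 0 calls, where 8.70% of all tested genes were called. At an unadjusted p under 0.05 in the blocked edgeR fit, 6068 of the 18277 tested genes passed. Of 10 kinases and partners that act on neurofilament tails 0 were called (unadjusted 1 lower), with a median of −0.03, and Gsk3b, a tail kinase and the most abundant, had 0.08 (adjusted p = 0.456). The 1 lower gene, named after its values were seen, was Cdk5r1, the activator of the kinase CDK5, at −0.46 (SE 0.09, adjusted p = 0.00763). Of 4 turnover genes 0 were called (unadjusted 1 higher), with a median of 0.04, and Capn2, a calpain protease and the most abundant, had 0.02 (adjusted p = 0.849). Of 8 motor genes of slow axonal transport 0 were called, with a median of 0.18, and 4 were higher by the adjusted p alone, where 7.67% of all genes were. Beside Dync1h1 these were, named after their values were seen, the kinesin chains Kif5b (0.23) and Klc1 (0.23) and the dynein chain Dync1i1 (0.31), with adjusted p-values of 0.0347, 0.0331 and 0.0140, and the same 4 had an unadjusted p under 0.05. Dync1h1, the dynein heavy chain and the most abundant, had 2190, 2145 and 1966 CPM with vehicle and 2692, 2480 and 2561 CPM with HC-HA/PTX3 (0.30, SE 0.07, adjusted p = 0.0149), groups that did not overlap. Of 12 neuronal microtubule genes 0 were called (unadjusted 2 lower and 2 higher), with a median of 0.04. By the adjusted p alone 1 of the 12 was lower, where 11.5% of all genes were. Map1b, an axonal microtubule-associated protein and the most abundant, had −0.01 (adjusted p = 0.949). All adjusted p-values here are from the blocked edgeR fit with BH adjustment, and DESeq2, limma-voom and ComBat-seq also called 0 genes of these 4 lists. With replicate 2 left out, 1 of the 10 kinases and partners was called lower.

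**Figure D5:**
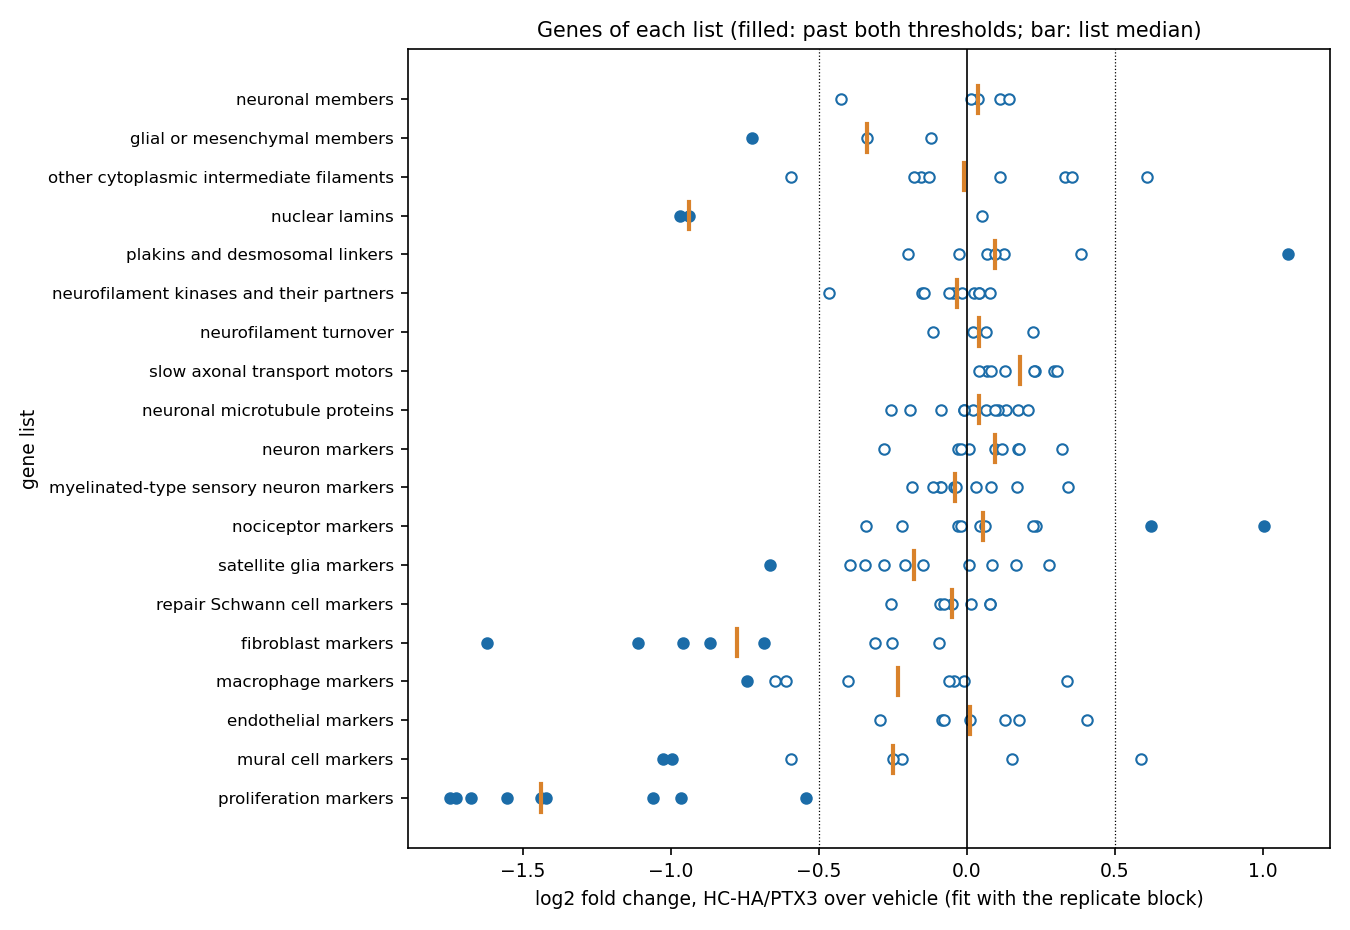
Log2 fold change, HC-HA/PTX3 over vehicle, of each tested gene (points, horizontal axis) in the gene lists described here (vertical axis) from edgeR with the replicate block. Filled points passed both thresholds, orange bars are list medians and dotted lines mark −0.5 and 0.5. All 9 proliferation markers and 5 of 8 fibroblast markers are filled on the lower side, while of the 8 intermediate filament genes only Gfap is filled.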

How the data were processed

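RNA was measured in 6 cultures, 3 with vehicle and 3 with HC-HA/PTX3, grouped by the titles in the labels. The authors aligned the reads to mm10, removed those of ribosomal RNA and deposited raw counts, the number of reads per gene and culture from featureCounts, with no normalization. For the aligner the methods give HISAT2 and the file headers STAR. For the genes the methods give RefSeq in the alignment and Ensembl in the counting, and the files list symbols only. No versions of these tools and no strand setting are given in the sources used here. Software was R (version 4.3.3), edgeR (version 4.0.16), limma (version 3.58.1), DESeq2 (version 1.42.0) and sva (version 3.50.0). Genes passing filterByExpr with the treatment as group were scaled by TMM and tested with glmQLFit and glmQLFTest, p-values adjusted by the Benjamini-Hochberg method over all tested genes. At these depths 1 CPM stood for 37.1 to 56.0 counts, so the spread between cultures limits abundant genes more than depth does.

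The replicate number was a block because the methods fit batch and condition together without listing batches, and the number is the only grouping in the labels that crosses both treatments. The pairing was checked by correlation across genes, which are not independent replicates, after subtracting group means. It was 0.631, 0.536 and 0.774 for vehicle and treated cultures of equal number, and −0.613 to 0.148 for unequal numbers. Every same-numbered pair exceeded the limit of 0.1. So did vehicle 2 with treated 1 (0.148) and vehicle 1 with treated 2 (0.104), so passing the limit alone does not single out equal numbers. Within each group no library was a duplicate of another, and libraries of different groups were not compared for this. The scripts were tested on simulated data first. Alternatives were no block, other filters and scalings, DESeq2, limma-voom, ComBat-seq with limma, no fold threshold, and each culture or pair left out. The counts of each gene list without the block or without a pair were added after seeing the data. Exon lengths came from GENCODE M21, matched by symbol for 26763 of 35976 genes.

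Named genes are the 8 members and, from each list, every called gene (the 4 with the largest change where more than 4 were called), the most abundant gene, genes under 10 counts in every culture, and the 3 genes closest in profile to each member with an SD above the median. Of the lists fixed at the start, 2 are not reported. Genes outside this rule are marked where named. The members and lists were chosen with earlier results of these data known. Protein sequences were not used here.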

Additional observations from a re-analysis of the deposited data

How the results depend on the processing

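The fold changes of the 8 filament genes and the overall counts were recomputed with other filters, scalings and tests and with cultures left out. For the other gene lists only the counts without the block, without each pair and in the other tools were recomputed. With no replicate block, 0 genes and 0 of the 8 filament genes were called by edgeR. With at least 10 counts in every culture Gfap dropped out of the test, so 0 of the 7 filament genes left were called. With no fold-change threshold 3505 genes and 3 of the 8 passed. With a culture or a same-numbered pair left out, between 878 and 2010.0 genes and between 0 and 2 of the 8 were called. Leaving out 1 culture of a pair gave fold changes close to those without the pair, because the block leaves the other culture without a partner. For replicate numbers, between 2271 and 5180.0 genes and between 4 and 7 of the 8 differed without a pair. Signs turned only for genes with small fold changes. Prph was at −0.0014 with no filter on low counts, and at −0.03, −0.03 and −0.02 without vehicle replicate 2, HC-HA/PTX3 replicate 2 and both. Nefl was at −0.03, −0.02 and −0.01 without vehicle replicate 3, HC-HA/PTX3 replicate 3 and both, and Vim at 0.03, 0.05 and 0.05. The cause was not tested. Over the leave-outs the lowest and highest values were −0.0337 and 0.0807 for Nefl, −0.0306 and 0.0460 for Prph, and −0.230 and 0.0472 for Vim. All other settings kept the sign of each fold change. With the longest transcript the vehicle level per kilobase was higher for Nefm (244), Vim (587) and Gfap (2.85), and by less for Prph (575) and Nes (113). Depth limits Gfap, whose counts in replicate 3 were 24 and 8.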

Other observations

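Macrophage, endothelial and mural cell markers gave 1, 0 and 2 calls in the blocked edgeR fit, all lower. Of 8 macrophage markers 1 fell after HC-HA/PTX3, the complement gene C1qa (−0.74, SE 0.20, adjusted p = 0.0302 by the blocked quasi-likelihood test of edgeR, BH-adjusted), with a list median of −0.23, where 5.38% of all tested genes were called lower. At an unadjusted p under 0.05 in edgeR, 4 of the 8 macrophage markers were lower and 1 was higher. DESeq2, limma-voom and ComBat-seq called 1, 1 and 2 of them lower. Cd68, a lysosomal protein of macrophages and the most abundant of that list, had −0.01 (adjusted p = 0.968). Of 7 endothelial markers 0 were called (1 higher at an unadjusted p under 0.05 in edgeR, and 0 in DESeq2, limma-voom and ComBat-seq), with a median of 0.01, and the vascular cadherin Cdh5 had −0.08 (adjusted p = 0.490). Of 7 mural cell markers 2 fell, beside the same 5.38%, the contractile genes Acta2 (−1.03, SE 0.21, adjusted p = 0.00873) and Tagln (−0.99, SE 0.22, adjusted p = 0.0114), and the list median was −0.25. In DESeq2 1 mural marker was called lower, and 1, 3 and 2 were without replicates 1, 2 and 3, with 1 higher without replicate 2. Rgs5, a pericyte gene and the most abundant of the mural list, had 0.15 (adjusted p = 0.104). C1qa lost its call without replicates 1 or 3, and without the block 0 genes of these 3 lists were called, where 1 mural marker was lower and 1 endothelial marker higher at an unadjusted p under 0.05.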
